A study of Mus musculus with 8 samples.

Results

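The genes described here are 9 regulators of lipid, retinoid and thyroid hormone signalling, taken by symbol from the 24421 rows of a gene count table. They are the receptors Pparg, Ppard, Rxra, Rxrb, Rara, Rarg and Thrb and the corepressors Hr and Ncor1. All 9 were measured in every library and passed the filter on low counts. Poly(A)-selected RNA came from KPCY cells, a mouse pancreatic cancer line that the labels give as male. A knockdown line, stably transduced with a lentiviral vector that inhibits miR-27a-3p (4 libraries), was set against a control line carrying a scrambled vector (4 libraries). Both lines had been selected in puromycin at 2 µg/mL over 7 days and grown in medium with 4.5 g/L glucose and 10% serum, and were harvested for RNA at 24 hours from seeding. The labels name 1 stable line for each group and call its libraries biological replicates, and the p-values therefore cover the spread among samples of these lines, not among separate transductions.

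These receptors are transcription factors of the nuclear receptor superfamily. PPARs bind fatty acids and their derivatives, RARs bind retinoic acid and THRs bind thyroid hormone, and each of them sits on DNA as a dimer with an RXR. Without ligand, RARs and THRs hold corepressors such as NCoR1 on their target genes, and ligand exchanges these for coactivators. MicroRNAs of the miR-27 family pair through their seed with sites in 3′ UTRs and lower the bound transcripts, and Pparg, Rxra and Thrb have been reported as their targets. The comparison asks what happened to these transcripts when miR-27a was inhibited.

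The mature sequences of both family members (RefSeq, GRCm38.p6) are shown because the site search rests on their common seed, bases 2 to 8, given in capitals. The first is encoded on chromosome 8 and the second on chromosome 13, each on the plus strand.
mmu-miR-27a-3p: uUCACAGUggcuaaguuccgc
mmu-miR-27b-3p: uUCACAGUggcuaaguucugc
An 8mer site is the complement of this seed followed by A (ACTGTGAA). The longest annotated 3′ UTR of Pparg, Rxra and Thrb held 1 8mer each and that of Rara held 2. These 5 sites are shown as they lie in the transcripts, 5′ to 3′, with the 8mer in capitals and coordinates of the 8mer in GRCm38, all on the plus strand.
Pparg, chr6:115490283-115490290: ctaagaaatttACTGTGAAaaagcatttaa
Rxra, chr2:27762800-27762807: gccggcctctgACTGTGAActgactcccca
Thrb, chr14:18035212-18035219: caaaggaagtcACTGTGAAaagcaaggaaa
Rara, chr11:98974323-98974330: ttttctctaatACTGTGAAatactaacttt
Rara, chr11:98974570-98974577: gccccagccccACTGTGAAggggccggcta
The Pparg site began 88 bases after the stop codon in a UTR of 204 bases. The Rxra site began at 3112 of 3269 bases, near the end of its UTR. Thrb had its 8mer at 1546 of 4424 bases and a weaker match, the 7mer-m8 (complement of the seed without the final A), at 3525. Ppard, Rxrb, Rarg and Ncor1 held only 6mers, and the longest UTR of Hr held no match of any kind. Of 11040 tested genes with an annotated 3′ UTR, 706 (6.39%) held an 8mer and 39 (0.353%) held 2 or more. A match is a description of the letters in the annotated UTR, and which of these UTRs the cells use was not measured.

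**Figure D1:**
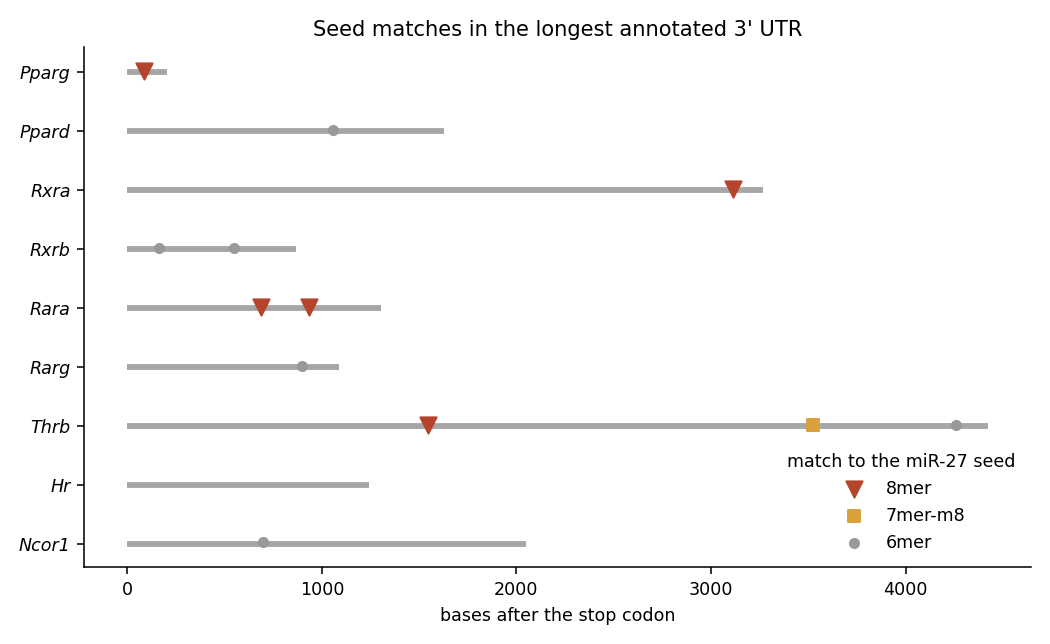
Matches to the miR-27 seed in the longest annotated 3′ UTR of each gene, drawn as a line from the stop codon (0) to the end of the UTR, in bases. Triangles are 8mers, the square a 7mer-m8 and grey circles 6mers, with 8mers in Pparg, Rxra, Rara (2 sites) and Thrb.

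The library totals were 19165513 to 23542275 counts. Of 11797 genes tested, 5645 (47.9%) passed an adjusted p under 0.05 in the quasi-likelihood test of edgeR (Benjamini-Hochberg adjusted), 23.8% of the tested genes as higher (2804) and 24.1% as lower (2841) in the knockdown line. This even split depends on the scaling, since library size alone gave 3339 higher and 2376 lower and upper-quartile scaling 3188 higher and 2478 lower. The levels of the 2 groups did not overlap for 42.2% of the tested genes, so small differences were called widely in this comparison. Scrambled replicate 2 stood apart from the other 3 scrambled libraries, since its pairs with them gave 5.17 to 5.35 for chi-square divided by genes and their own pairs 1.80 to 2.35. Without it, 6004 genes were called. All 9 markers of ductal epithelium were expressed, summing to 11590 to 11910 CPM (TMM-scaled counts per 1000000) in knockdown and 10900 to 11860 CPM in scrambled libraries. Of the markers of 6 other sources, the fibroblast list summed to 0.725 to 1.38 CPM in knockdown and 0.943 to 1.41 CPM in scrambled libraries, with Col1a2, Dcn, Lum and Pdgfrb at 0 in all 8. The immune, endothelial, muscle and acinar or islet lists summed to at most 4.30 CPM in any library. The adipocyte list summed to 6.58 to 8.45 CPM in knockdown and 9.47 to 11.9 CPM in scrambled libraries, mostly Cidec, with Plin1 and Lep at 0 throughout.

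Of the 9 genes, 3 rose in the knockdown line (Ppard, Rxra and Rxrb), 3 fell (Pparg, Thrb and Hr) and 3 did not pass the test (Rara, Rarg and Ncor1). The 6 called genes were those whose levels did not overlap between the groups, 6 of 9 where 42.2% of all tested genes did not. This share of 66.7% called stands against 47.9% of all genes tested, for genes chosen with earlier results of these data known. The median log2 fold change of the 9 was −0.021 and that of all tested genes 0.0017. Hr and Thrb moved by more than most of the transcriptome: the size of the change in Hr ranked 132 among the 11797 tested genes and exceeded that of 98.9% of them, and that of Thrb exceeded 93.2%. For the other 4 called genes the change was 1.084-fold to 1.156-fold, and exceeded that of 44.9% (Rxra) to 67.5% (Pparg) of tested genes. Fewer cells expressing a gene and less RNA in each cell cannot be told apart in bulk libraries.

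**Figure D2:**
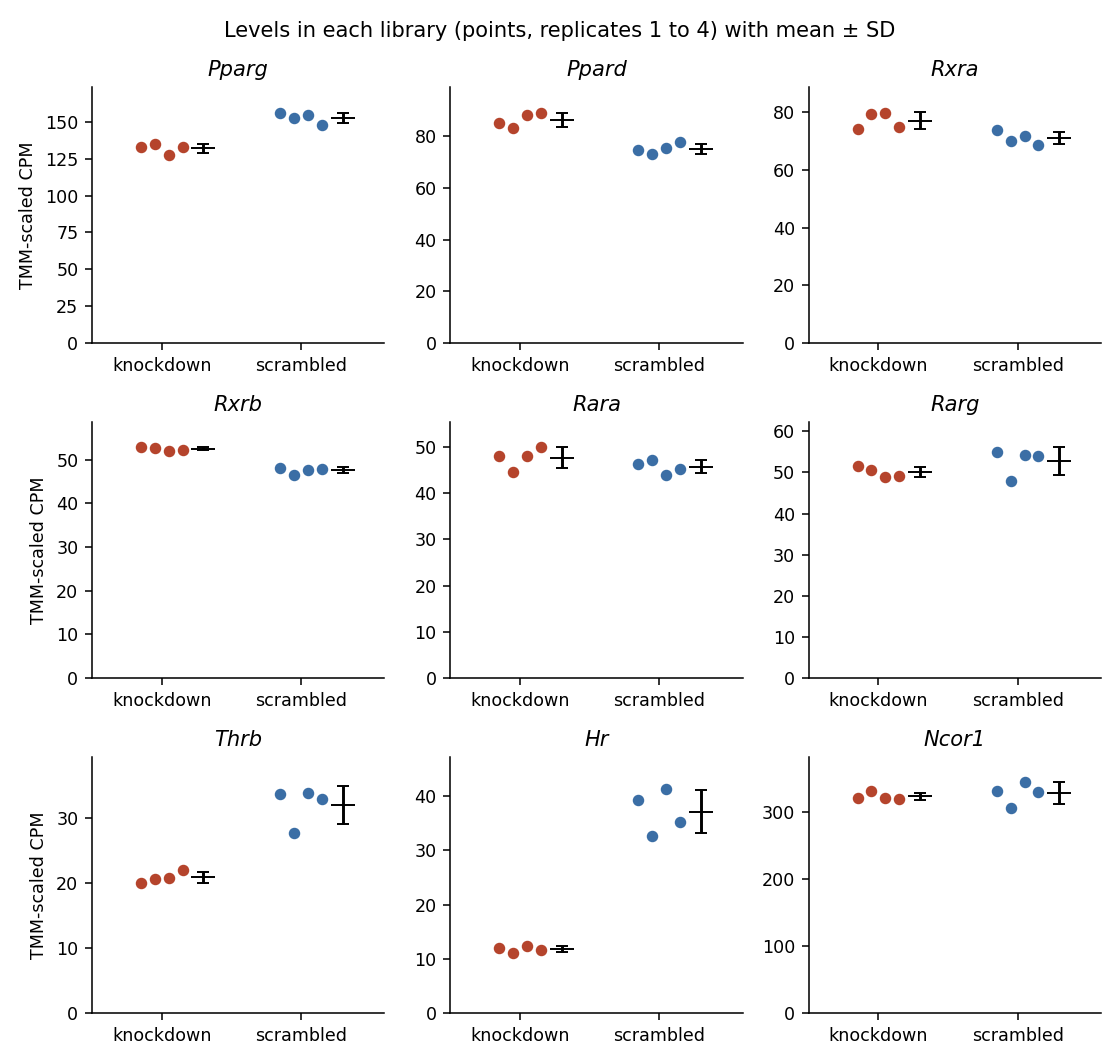
TMM-scaled CPM of each of the 9 genes by library, with replicates 1 to 4 from left to right in each group and the mean ± SD (n = 4) beside them, each panel on its own axis from 0. Hr lies between 11.1 and 12.5 CPM in the knockdown libraries and between 32.6 and 41.3 CPM in the scrambled libraries, while the points of Rara, Rarg and Ncor1 overlap.

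Pparg, the lipid-sensing receptor that drives adipocyte differentiation and is also found in epithelia, had 133, 135, 128 and 133 CPM in knockdown libraries, against 156, 153, 154 and 148 CPM in scrambled libraries. Every knockdown library lay below every scrambled one. Its mean was 132 ± 3.22 CPM in the knockdown and 153 ± 3.51 CPM in the scrambled line (SD, n = 4 each), a log2 fold change of −0.21 (SE 0.029, 1.16-fold lower, edgeR adjusted p = 2.78e-06). Pparg lies on chromosome 6 (115360951 to 115490399, plus strand), where the median log2 fold change of 556 tested genes was −0.108. More genes of this chromosome fell (261) than rose (62), and the part of this in the fall of Pparg was not tested. Profiles over the 8 libraries were compared with that of Pparg by the root mean square difference of centred log2 CPM. Leaving out predicted and clone names (Gm, Rik), the 3 closest tested genes were Agfg1 (0.0137), Sbf1 (0.0174) and Dnajb11 (0.0186).

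Ppard, a widely expressed fatty acid receptor that controls oxidation genes, went the other way. It had 85.2, 83.0, 88.2 and 88.9 CPM in knockdown libraries, against 74.5, 73.0, 75.5 and 77.5 CPM in scrambled libraries. The lowest knockdown library lay above the highest scrambled one. The log2 fold change was 0.20 (SE 0.035, 1.15-fold higher, edgeR adjusted p = 5.57e-05), on a chromosome (17) whose median was 0.0063. The remaining PPAR, Ppara, the fatty acid receptor best known from liver, was low at 5.22 ± 0.455 CPM in knockdown and 4.65 ± 0.198 CPM in scrambled libraries (SD, n = 4 each). Its log2 fold change of 0.17 (95% interval −0.069 to 0.40) did not pass the test (adjusted p = 0.237), and was 0.102 without knockdown replicate 4.

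Set per kilobase of exon, Pparg was the most abundant of the 9 genes in both lines. It stood at 44.7 ± 1.09 CPM per kb in knockdown and 51.7 ± 1.19 CPM per kb in scrambled libraries (SD, n = 4 each). It supplied 77.7 ± 0.883% of the summed PPAR level in knockdown and 82.2 ± 0.569% in scrambled libraries, a sum of 57.6 ± 0.949 CPM per kb in knockdown and 62.9 ± 1.06 CPM per kb in scrambled libraries. Ppard supplied 19.96 ± 0.804% of it in knockdown and 15.9 ± 0.599% in scrambled libraries (SD, n = 4 each). Exon lengths are those of the union of annotated exons, so a gene that uses only some of them is understated.

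The RXRs, the dimer partners of all the receptors here, were both slightly higher in the knockdown line. Rxra had 74.2, 79.5, 79.6 and 74.9 CPM in knockdown libraries, against 73.7, 70.05, 71.8 and 68.6 CPM in scrambled libraries. The groups were separated only narrowly, by 74.2 CPM in knockdown replicate 1 over 73.7 CPM in scrambled replicate 1. The log2 fold change was 0.12 (SE 0.037, 1.084-fold higher, edgeR adjusted p = 0.0129), and the adjusted p was 0.0512 without knockdown replicate 3. Rxrb had 52.9, 52.6, 52.0 and 52.2 CPM in knockdown libraries, against 48.2, 46.5, 47.5 and 47.9 CPM in scrambled libraries. These groups were well apart and each was tight. Its log2 fold change was 0.14 (SE 0.038, 1.103-fold higher, adjusted p = 0.00422). The third member of the family, Rxrg, had 0 counts in all 8 libraries, which allows up to 3 counts or 0.127 to 0.157 CPM in a library, counting error only.

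Both RXRs contributed about equally per kilobase. Rxra made up 51.7 ± 1.04% of the RXR level in knockdown and 52.1 ± 0.731% in scrambled libraries (SD, n = 4 each), with Rxrb the rest. The summed RXR level was 27.3 ± 0.494 CPM per kb in knockdown and 25.0 ± 0.498 CPM per kb in scrambled libraries.

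The retinoic acid receptors Rara and Rarg did not pass the test. Rara, the broadly expressed form, had 48.0, 44.5, 48.1 and 49.9 CPM in knockdown libraries, against 46.3, 47.2, 43.9 and 45.3 CPM in scrambled libraries. The groups overlapped, and the log2 fold change of 0.063 had a 95% interval of −0.029 to 0.15 (edgeR adjusted p = 0.258). Rarg, the form typical of epithelia such as skin, had 51.6, 50.7, 48.9 and 49.1 CPM in knockdown libraries, against 55.0, 47.8, 54.2 and 54.1 CPM in scrambled libraries. Scrambled replicate 2 lay below every other library of the 8, and the other 3 scrambled libraries above all of them. The log2 fold change of Rarg was −0.077 (95% interval −0.17 to 0.017, adjusted p = 0.171), and without scrambled replicate 2 it was −0.12 (adjusted p = 0.0142). That of Rara was 0.0383 without knockdown replicate 4 (adjusted p = 0.549).

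Rarb, the retinoic acid receptor that is itself a classical retinoic acid target, was near the detection limit and rose. It had 31, 36, 32 and 46 counts in knockdown libraries and 26, 18, 17 and 17 counts in scrambled libraries. No knockdown library was as low as any scrambled one, and the means were 1.80 ± 0.235 CPM in the knockdown and 0.931 ± 0.233 CPM in the scrambled line (log2 fold change 0.96, SE 0.23, adjusted p = 0.00133). Of its exon bases 34.1% are shared with Top2b on the opposite strand, and the strand setting of the counting is not given in the sources used here, so its level is uncertain. It supplied 1.48 ± 0.192% of the summed RAR level in knockdown and 0.766 ± 0.177% in scrambled libraries, with Rarg at 51.1 ± 1.59% in knockdown and 53.8 ± 2.19% in scrambled libraries and Rara the rest.

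The thyroid hormone receptor Thrb fell. It had 20.01, 20.6, 20.7 and 22.02 CPM in knockdown libraries, against 33.6, 27.6, 33.8 and 32.9 CPM in scrambled libraries. The groups were clearly apart, although scrambled replicate 2 lay well below the other 3 scrambled libraries. The means were 20.8 ± 0.845 CPM in the knockdown and 31.99 ± 2.95 CPM in the scrambled line (SD, n = 4 each), a log2 fold change of −0.62 (SE 0.064, 1.53-fold lower, edgeR adjusted p = 4.79e-08), and −0.68 without scrambled replicate 2. Thrb lies on chromosome 14 (17660261 to 18038090, plus strand), where the median of 395 tested genes was −0.0598 and 52 rose and 133 fell.

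Thra, the other gene for a thyroid hormone receptor, rose. It had 24.7, 20.9, 23.8 and 23.2 CPM in knockdown libraries, against 19.9, 18.7, 19.6 and 21.8 CPM in scrambled libraries. Here the groups overlapped, since knockdown replicate 2 lay below scrambled replicate 4. The log2 fold change was 0.21 (SE 0.065, 1.16-fold higher, adjusted p = 0.0111). Thra shares 263 exon bases (5.70%) with Nr1d1 on the opposite strand. Per kilobase, Thrb made up 36.01 ± 2.05% of the summed thyroid hormone receptor level in knockdown and 49.8 ± 1.94% in scrambled libraries (SD, n = 4 each).

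Hr showed the largest fold change of the 9 genes. It encodes Hairless, a corepressor that binds thyroid hormone receptors and is known from hair follicle cycling and, in rodents, as a thyroid hormone target in brain. Hr had 11.98, 11.1, 12.5 and 11.6 CPM in knockdown libraries, against 39.4, 32.6, 41.3 and 35.2 CPM in scrambled libraries. The highest knockdown library lay far below the lowest scrambled one, which again was replicate 2. The means were 11.8 ± 0.581 CPM in the knockdown and 37.1 ± 3.96 CPM in the scrambled line (SD, n = 4 each), a log2 fold change of −1.66 (SE 0.074, edgeR adjusted p = 2.06e-14). In counts, Hr had 214 to 255 in knockdown and 647 to 964 in scrambled libraries, so counting error is small beside this difference. Hr (70552212 to 70573548, plus strand) is on the same chromosome as Thrb and shares no exon bases with another annotated gene.

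Ncor1, the scaffold of the main corepressor complex of unliganded receptors, did not pass the test. It had 321, 331, 322 and 320 CPM in knockdown libraries, against 332, 306, 345 and 330 CPM in scrambled libraries. The knockdown libraries lay inside the range of the scrambled ones. The log2 fold change was −0.021, with a 95% interval of −0.082 to 0.039 (edgeR adjusted p = 0.574). It was −0.0532 without scrambled replicate 2 (adjusted p = 0.0386) and 0.00523 without scrambled replicate 3, so its sign is not settled.

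**Figure D3:**
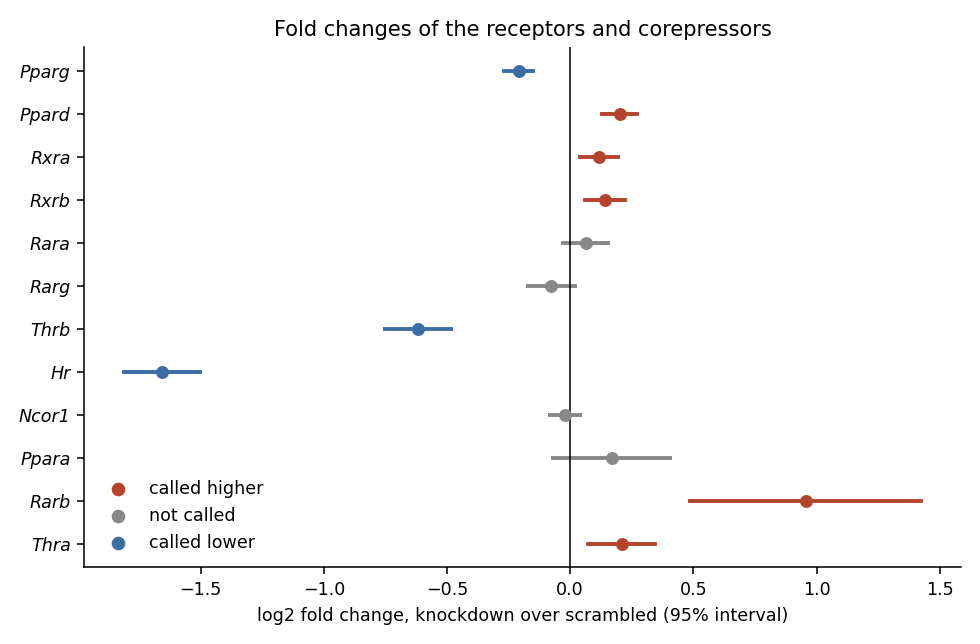
Log2 fold change (knockdown over scrambled) with its 95% interval from edgeR for the 9 genes and, below them, the related receptors Ppara, Rarb and Thra. Hr (−1.66) and Thrb (−0.62) lie furthest below 0, and the intervals of Rara, Rarg, Ncor1 and Ppara include 0.

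The order of the 9 genes per kilobase differed between the lines in 3 places, between Hr and Thrb, Rxrb and Rarg, and Ppard and Rara. In the knockdown line it ran from Pparg through Ncor1 (25.3 ± 0.411 CPM per kb), Rxra (14.1), Rxrb (13.2), Rarg (11.8), Ppard (11.5) and Rara (10.9) to Thrb (2.82 ± 0.114) and Hr (1.70 ± 0.0839). In the scrambled line it ran from Pparg through Ncor1 (25.6 ± 1.26 CPM per kb), Rxra (13.01), Rarg (12.4), Rxrb (11.97), Rara (10.5) and Ppard (10.0) to Hr (5.37 ± 0.572) and Thrb (4.32 ± 0.398). Hr thus stood above Thrb in every scrambled library and below it in every knockdown library. Among neighbours, the ranges over libraries overlapped between Rarg and Ppard and between Ppard and Rara in the knockdown line, and between Rxra and Rarg, Rarg and Rxrb, and Rara and Ppard in the scrambled line.

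**Figure D4:**
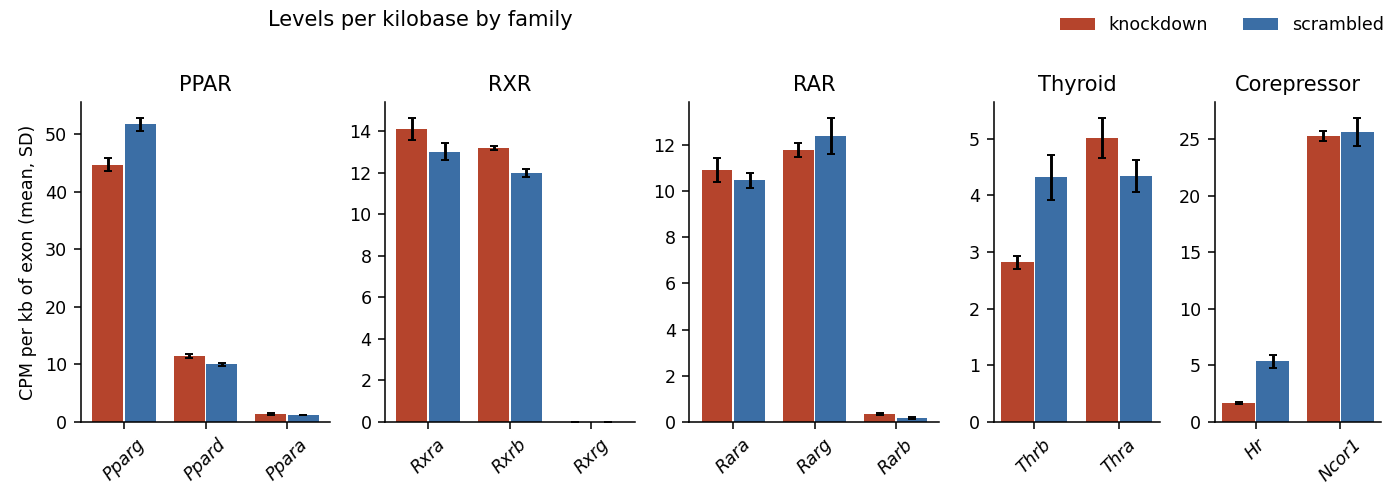
CPM per kilobase of exon (bars, mean with SD, n = 4 libraries) in knockdown and scrambled libraries, grouped by family, each panel with its own axis from 0. Pparg dominates the PPARs, the RXR pair is about even, and Thrb (2.82 against 4.32) and Hr (1.70 against 5.37) are lower in the knockdown line.

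The genes with 8mer sites did not share a direction. Of the 4, Pparg and Thrb fell, Rxra rose and Rara, with 2 sites, did not pass the test. Over all tested genes with an annotated UTR, 27.3% of the 706 genes with an 8mer were called higher and 23.4% lower, against 24.0% higher and 24.9% lower of the 10334 without one. Hr, whose longest UTR held no match, had the largest change of the 9. How far miR-27a was lowered cannot be read from these libraries, which do not capture mature microRNAs.

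Of the coregulators that work with these receptors, most moved little. Among 11 other genes of corepressor complexes, 4 fell, 1 rose and 6 did not pass the test (45.5% called against 47.9% of all genes, median log2 fold change −0.059 against 0.0017). Tbl1xr1, which exchanges corepressors for coactivators, fell to 85.6 ± 3.18 CPM in the knockdown, against 95.9 ± 2.71 CPM in the scrambled line (log2 fold change −0.17, edgeR adjusted p = 0.000426). Coro2a, an actin-binding part of the NCoR complex, fell by 0.13 on the log2 scale (adjusted p = 0.0008). The deacetylase Hdac1 fell by 0.095 (adjusted p = 0.0138) and the ligand-dependent corepressor Nrip1 by 0.095 (adjusted p = 0.0420). Nrip1 lost its call without any 1 of knockdown replicates 1, 3 and 4 and scrambled replicate 4 (adjusted p = 0.0788 to 0.216), and was −0.0553 without the last. The rise of Hdac2, a close relative of Hdac1, was 0.070 (adjusted p = 0.0493) and was lost without knockdown replicate 2 or 3 or scrambled replicate 1 or 4 (adjusted p = 0.106 to 0.168). Hdac2 was chosen after its values were seen.

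Among 13 coactivators, 4 rose, 3 fell and 6 did not pass the test (53.8% called against 47.9% of all genes, median log2 fold change 0.0059). The 4 that rose were Ncoa1, Ncoa2, Ncoa3 and Ncoa6. Ncoa4 (log2 fold change 0.0090, edgeR adjusted p = 0.867) and Med1 (−0.068, adjusted p = 0.0735) did not pass the test. Neither did Crebbp, Ep300, Ppargc1a and Kat2b, and all of these uncalled genes were named after their values were seen. Ncoa2 had 79.4 ± 2.30 CPM in knockdown and 72.7 ± 1.95 CPM in scrambled libraries (log2 fold change 0.13, edgeR adjusted p = 0.00458). Ncoa1 (0.24, adjusted p = 0.0374), Ncoa3 (0.11, adjusted p = 0.0409) and Ncoa6 (0.097, adjusted p = 0.0136) were named after their values were seen, and their calls did not withstand the loss of single libraries. Ncoa1 lost its call without knockdown replicate 1, 2 or 4 or scrambled replicate 3 or 4 (adjusted p = 0.0529 to 0.191), with a log2 fold change of 0.138 without scrambled replicate 3. Ncoa3 lost it without knockdown replicate 1 or 2 or scrambled replicate 2 (adjusted p = 0.0902 to 0.143), with 0.0536 without the last, and Ncoa6 without knockdown replicate 3 or 4 (adjusted p = 0.0529 to 0.0595). The arginine methyltransferases Carm1 and Prmt1, which modify coactivators and histones, fell by 0.15 and 0.12 on the log2 scale (adjusted p = 0.000151 and 0.000475). Carm1 shares 21.1% of its exon bases with Yipf2 on the opposite strand. Ppargc1b, a coactivator of oxidative metabolism, was low and fell to 1.61 ± 0.382 CPM in the knockdown, against 2.53 ± 0.328 CPM in the scrambled line (adjusted p = 0.00644).

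Of 7 tested receptors that also pair with RXRs or their relatives, 2 rose, 1 fell and 4 did not pass the test (42.9% called against 47.9% of all genes, median log2 fold change 0.051). Nr4a1, an orphan receptor induced by growth signals, had 11.1 ± 0.873 CPM in knockdown and 16.6 ± 0.529 CPM in scrambled libraries (log2 fold change −0.58, SE 0.073, edgeR adjusted p = 9.30e-07). Nr1i2, the xenobiotic receptor PXR, was low and rose to 3.29 ± 0.211 CPM in the knockdown, against 2.02 ± 0.689 CPM in the scrambled line (adjusted p = 0.00486). Nr4a2 rose by a log2 fold change of 0.38 (adjusted p = 0.0299), a call that was lost without any 1 of knockdown replicates 1, 2 and 3 or scrambled replicates 1, 3 and 4 (adjusted p = 0.058 to 0.0954). The eighth gene of the list, Nr1i3, did not pass the filter.

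Genes that PPARs are known to control went both ways. Of 34 listed, 24 passed the filter on low counts, and of these 10 rose, 7 fell and 7 did not pass the test (70.8% called against 47.9% of all genes, median log2 fold change 0.00068). The list was chosen with earlier results of these data known, so its share called is not an independent contrast with that of all genes. Lpl, the lipase that frees fatty acids from lipoproteins, had 11.1, 11.03, 11.85 and 11.95 CPM in knockdown libraries, against 3.45, 2.37, 3.26 and 4.03 CPM in scrambled libraries (log2 fold change 1.81, SE 0.12, edgeR adjusted p = 2.03e-11). Txnip, an inhibitor of thioredoxin, rose by 0.40 (adjusted p = 1.58e-08), with 19.4% of its exon bases shared with an antisense gene. Genes of fatty acid oxidation and storage were among the rises. Hadha, a subunit of the mitochondrial trifunctional enzyme, had 142 ± 1.56 CPM in knockdown and 118 ± 5.82 CPM in scrambled libraries (log2 fold change 0.26, adjusted p = 6.14e-07). Cpt1a, which starts fatty acid import into mitochondria, rose by 0.19 (adjusted p = 1.87e-05), the fatty acid carrier Fabp5 by 0.42 (adjusted p = 2.65e-05) and the lipid droplet coat protein Plin2 by 0.13 (adjusted p = 0.000968). The desaturase Scd1 fell to 404 ± 7.57 CPM in the knockdown, against 479 ± 16.7 CPM in the scrambled line (log2 fold change −0.25, adjusted p = 4.89e-08). Cidec, a fat droplet protein typical of adipocytes, fell by 0.53 (adjusted p = 0.000115). Angptl4, a secreted inhibitor of Lpl and a common readout of PPAR activity, had 67.5 ± 1.06 CPM in knockdown and 69.0 ± 2.24 CPM in scrambled libraries (log2 fold change −0.031, adjusted p = 0.508). Cpt1a, Fabp5, Plin2, Cidec and Angptl4 were chosen after their values were seen.

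Genes of retinoid handling and response were called in both directions. Of 29 listed, 18 passed the filter, and of these 10 fell, 5 rose and 3 did not pass the test (83.3% called against 47.9% of all genes, median log2 fold change −0.156). With upper-quartile scaling or library size alone, 7 of them fell and 5 rose. This list too was chosen with earlier results of these data known, and its share called may partly reflect that choice. Rdh10, which starts the conversion of retinol to retinoic acid, rose, with 261, 266, 266 and 262 CPM in knockdown libraries, against 179, 211, 188 and 190 CPM in scrambled libraries (log2 fold change 0.46, SE 0.035, edgeR adjusted p = 3.40e-10). Rbp4, the retinol carrier of plasma, had 31.4 ± 2.08 CPM in knockdown and 19.0 ± 1.13 CPM in scrambled libraries (0.72, adjusted p = 2.14e-09). Stra6, the receptor that takes up retinol from Rbp4, went the other way, with 6.31 ± 0.624 CPM in knockdown and 11.9 ± 0.824 CPM in scrambled libraries (−0.91, adjusted p = 4.39e-08). Aldh1a3, which makes retinoic acid, fell to 37.3 ± 1.93 CPM in the knockdown, against 51.5 ± 2.95 CPM in the scrambled line (−0.46, adjusted p = 6.94e-08). Cyp26b1, which breaks retinoic acid down, fell to 2.83 ± 0.495 CPM in the knockdown, against 6.01 ± 2.16 CPM in the scrambled line (−1.09, adjusted p = 0.000154). Its groups overlapped, since the lowest scrambled library (3.07 CPM) lay below the highest knockdown library (3.37 CPM). Steps that supply and that remove retinoic acid were thus among the falls alike. Tgm2, a transglutaminase induced by retinoic acid in many cells, fell to 79.6 ± 2.92 CPM in the knockdown, against 114 ± 11.5 CPM in the scrambled line (−0.52, adjusted p = 2.06e-08), and shares 370 exon bases with Rprd1b and 633 with another gene on the opposite strand. The other rises were of Bco2, a carotenoid-cleaving enzyme near the detection limit (1.57, adjusted p = 0.000553), the homeobox gene Meis1 (0.93, adjusted p = 0.000436) and the epithelial kinase Ripk4 (0.23, adjusted p = 4.19e-06). The other falls were of Bhlhe40 (−0.34, adjusted p = 8.18e-08), Meis2 (−0.17, adjusted p = 0.00022) and Rdh11 (−0.14, adjusted p = 0.0128). Dhrs3 (−0.14, adjusted p = 0.0292), Aldh1a1 (−0.40, adjusted p = 0.0431) and Rai14 (−0.077, adjusted p = 0.0237) also fell, each with overlapping groups. Aldh1a3, Cyp26b1, Bco2, Meis1, Ripk4 and these other falls were named after their values were seen.

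Of 22 genes of thyroid hormone handling and response, 14 passed the filter, and of these 5 rose, 3 fell and 6 did not pass the test (57.1% called against 47.9% of all genes, median log2 fold change −0.016). Klf9, a transcription factor that thyroid hormone induces directly in several tissues, had 39.0 ± 1.42 CPM in knockdown and 31.4 ± 1.61 CPM in scrambled libraries (log2 fold change 0.31, edgeR adjusted p = 1.88e-05). Dio3, the deiodinase that inactivates thyroid hormone, rose to 9.64 ± 1.28 CPM in the knockdown, against 6.50 ± 0.409 CPM in the scrambled line (0.57, adjusted p = 8.36e-05). Atp2a2, a calcium pump of the endoplasmic reticulum, rose by 0.13 (adjusted p = 0.00023). Me1, malic enzyme, a thyroid hormone target in rodent liver, fell to 291 ± 3.35 CPM in the knockdown, against 325 ± 3.36 CPM in the scrambled line (−0.16, adjusted p = 5.14e-06). These known targets did not share a direction. The other called genes, named after their values were seen, were Slco4a1 (0.18, adjusted p = 0.0161) and Gpd2 (0.090, adjusted p = 0.00812) among the rises and Idh3a (−0.13, adjusted p = 0.00102) and Stat5a (−0.32, adjusted p = 0.00251) among the falls. Slco4a1 had an adjusted p of 0.0689 without knockdown replicate 3 and a log2 fold change of 0.113 without scrambled replicate 2. Dio1 and Dio2 did not pass the filter.

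**Figure D5:**
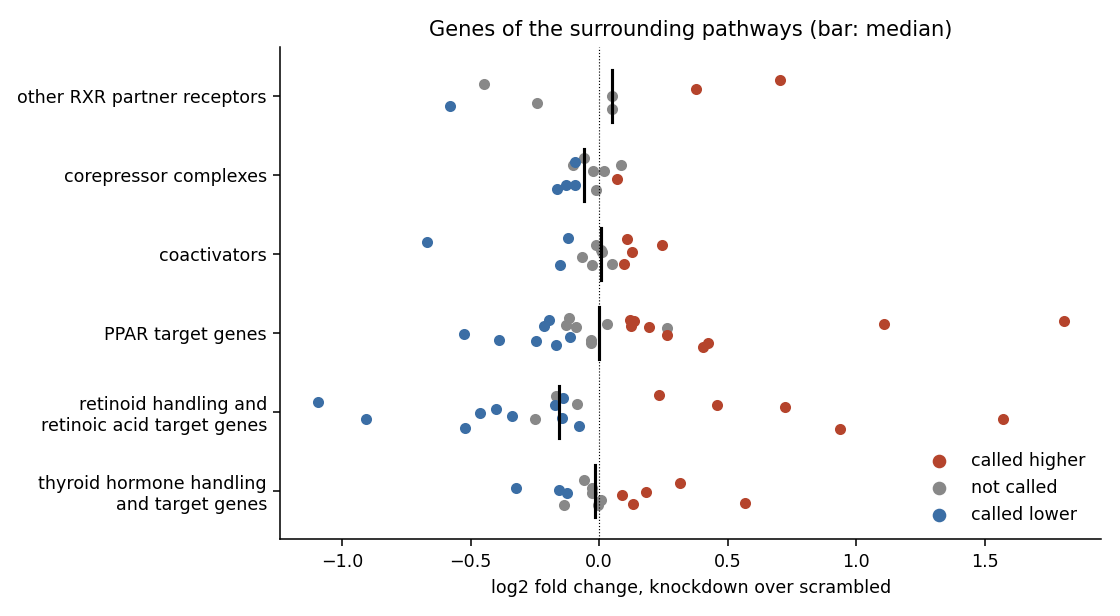
Log2 fold changes (knockdown over scrambled) of the tested genes of 6 surrounding lists, 1 point per gene, coloured by whether edgeR called it at an adjusted p under 0.05, with a bar at each list's median and random vertical scatter. Each list holds points on both sides of 0, and the retinoid list has the lowest median (−0.156).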

How the data were processed

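The authors deposited raw counts per gene symbol, with 1 column for each library. Per the labels' protocols, RNA with an integrity number of at least 7 was prepared with a stranded mRNA kit and sequenced in pairs of 59 bases. The submitters' processing notes name, without roles, STAR, Bowtie, bcl2fastq 2.20, R 4.2.1 and DESeq2 1.36.0, with build mm10. How reads were assigned to genes, and whether by strand, is not given in the sources used here.

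The 9 genes and all lists were chosen with earlier results of these data known. Their shares called are therefore not an independent contrast with the share of all genes. The test was that of edgeR 4.0.16 in R 4.3.3 (genes kept by filterByExpr at minimum count 10 and total 15, TMM, glmQLFTest on group, Benjamini-Hochberg adjustment over all tested genes, threshold 0.05). Levels are TMM-scaled CPM. SE is the log2 fold change over the root of the F statistic. Coordinates, exon lengths and UTRs are GENCODE M21 (GRCm38), 1-based. The 9 genes and the remaining PPAR, RXR, RAR and THR genes were named whatever their values. From each other list the rule took up to 4 called genes of smallest adjusted p, a choice by their result. Same-numbered libraries did not deviate together. Alternatives were other scalings, filters and tools (DESeq2 1.42.0, limma 3.58.1), a replicate block and leaving out each library. On simulated counts of this comparison (11738 genes), edgeR recovered 74% of genes changed 1.2-fold and 96% at 2-fold. Only 200 genes were changed there, far fewer than were called in the data, so recovery in the data may differ. Changes under 1.2-fold, such as those of Pparg, Ppard, Rxra and Rxrb, were not simulated.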

Additional observations from a re-analysis of the deposited data

Results flagged for a closer look

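Among 112 groups of 4 libraries checked with Dixon's ratio, 11 had 1 library far from the other 3, where chance gives about 1 in 20. Among the 9 genes, scrambled replicate 2 was low for Rarg (47.8 CPM, the others 54.1 to 55.0) and Thrb (27.6 CPM, the others 32.9 to 33.8), and knockdown replicate 2 was high for Ncor1 (331 CPM, the others 320 to 322). Among coregulators, Hdac1 was high in knockdown replicate 4 (106 CPM, 105.5 before rounding, the others 102 to 103) and low in scrambled replicate 3 (105.7 CPM, the others 112 to 113). Nrip1 was high in scrambled replicate 4 (93.2 CPM, the others 83.8 to 84.0). Carm1 was high in scrambled replicate 1 (190 CPM, the others 178 to 180). Prmt1 was low in knockdown replicate 1 (278 CPM, the others 289 to 290), and Ncoa2 in knockdown replicate 2 (76.0 CPM, the others 80.3 to 81.1). Idh3a was high in knockdown replicate 2 (156 CPM, the others 152 to 153). Ripk4 in knockdown replicate 1 (80.7 CPM) differed little from the others, which all stood at 81.2 or 81.3 CPM.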

How the results depend on the processing

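Pparg, Ppard, Rxrb, Thrb and Hr kept their direction and call, and Rara stayed uncalled, under all 16 alternatives (other scalings, filters and tools, the replicate block and leaving out each library). Hr ranged from −1.71 to −1.60 and Thrb from −0.68 to −0.588. Leaving out 1 library gave 0.10 to 0.135 for Rxra, −0.12 to −0.0563 for Rarg and −0.0532 to 0.00523 for Ncor1. Scaled by library size alone, Ncor1 was 0.00437. The replicate block gave 5533 calls and changed no call of the 9 genes. The cause of these changes was not tested.

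Without 1 library, 3 to 5 of the 9 genes were lower (5 without scrambled replicate 2, where Rarg and Ncor1 also fell). RXR partners had 1 to 2 rises and 1 to 2 falls, corepressor genes 0 to 1 rises and coactivators 2 to 4 rises. PPAR targets had 8 to 9 rises and retinoid genes 7 to 9 falls. Library size alone left 2 corepressor falls. Without a filter RXR partners had 2 falls. No filter, DESeq2 and limma-voom each left 0 corepressor rises. At an adjusted p under 0.01, which passes fewer genes by construction, there were 4250 calls. Among the 9 genes, Rxra alone lost its call there (edgeR adjusted p = 0.0129). That threshold left 1 rise each among the related receptors, RXR partners and coactivators. It left 0 rises and 2 falls among corepressor genes, 6 rises of PPAR targets and 6 falls of retinoid genes. Nrip1 was not called with upper-quartile scaling, library size alone or DESeq2, Hdac1 not with library size alone, and Ncoa1 not with DESeq2. Searching all annotated UTRs left 4 of the 9 genes with an 8mer or 7mer. Rarb rests on 17 to 46 counts in a library.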
